A study of Arabidopsis thaliana and Cardamine hirsuta and Capsella rubella with 102 samples.

Results

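The flg22 response of Eutrema salsugineum at 9 h was measured as RNA-seq read counts per gene in seedlings of the accession Shandong. Its members are the 3 libraries of seedlings treated with 1 µM flg22 for 9 h and the 3 libraries of mock seedlings of the same time, which are 6 of the 18 E. salsugineum libraries and 6 of the 102 libraries of the study. All seedlings were 12 days old and stood in liquid MS medium, to which flg22 or medium without the peptide (mock) was added. The 3 replicates are independent experiments in which flg22 and mock were handled side by side, and each sample pooled several wells of whole seedlings, so that shoot and root cannot be told apart and fewer cells of a type cannot be told apart from less RNA per cell. The gene table lists 26351 genes, of which 19834 had a mean of at least 10 counts over the 18 libraries and were tested.

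flg22 is a peptide from bacterial flagellin. In A. thaliana it is bound by the receptor kinase FLS2, which joins with the coreceptor BAK1 and passes the signal on through cytoplasmic kinases such as BIK1, the NADPH oxidase RBOHD, calcium-dependent kinases and MAP kinases. The response, called pattern-triggered immunity, includes transcription factors of the WRKY, ERF, MYB, NAC and zinc finger families, danger peptides that are sensed in turn, indole glucosinolates and related tryptophan products, and the hormones salicylic acid, jasmonate and ethylene. E. salsugineum is a salt-tolerant relative of A. thaliana. Its genes carry Thhalv identifiers without names, and a gene is named here by its A. thaliana ortholog where the data sets supplied with the study list one, which holds for 4240 of the 19834 tested genes.

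PROPEP3 and CYP79B2, which recur in the results below, are shown with the primers that the study lists for quantifying their transcripts in E. salsugineum, because these are the designed sequences tied to the genes. The sequences run 5′ to 3′ and are all in lower case because no base is singled out.
PROPEP3 (Thhalv10005182) forward: cgaccgttgaaatcacagag
PROPEP3 (Thhalv10005182) reverse: ttttgcctccttttcctgag
CYP79B2 (Thhalv10024861) forward: ccgccgatgaaatcaaaccc
CYP79B2 (Thhalv10024861) reverse: tttgttcaccatctccgcca
The CYP79B2 pair is listed for A. thaliana as well. Each of its primers matched the TAIR10.1 genome at 1 place, the forward primer at chr4:18526275-18526294 on the plus strand and the reverse primer at chr4:18526704-18526723 on the minus strand, and both lie in the coding sequence of AT4G39950. The PROPEP3 primers had 0 exact matches in that genome.

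The 9 h libraries held 25987870 to 28871828 gene counts after flg22 and 26179662 to 33655269 after mock, so that 10 counts corresponded to 0.285 to 0.386 CPM, the unit of counts scaled to the library total. Seedling markers were present in every library. The 8 tested photosynthetic markers summed to 4507, 2781 and 4355 CPM after flg22, against 4812, 3819 and 5518 CPM after mock, lower after flg22 in each pair, and all 8 had a negative log2 fold change, between -0.479 and -0.171. The 3 root hair markers summed to 27.1 to 40.9 CPM after flg22 and 29.5 to 36.7 CPM after mock. In all, 0 of these 11 genes passed the test by edgeR, limma-voom or DESeq2. At an unadjusted p under 0.05, 2 photosynthetic markers and 1 root hair marker were lower, and the part of tissue composition in the results below was not tested. Levels are given in CPM, scaled by the TMM factor of each library. Effects are given as log2 fold changes of flg22 over mock from the edgeR fit with the replicate number as a block. A gene counts as changed, or called, with an adjusted p below 0.01 and an absolute log2 fold change above 1.

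At 9 h after flg22 the called changes were almost entirely upward. Of the 19834 genes, 492 were higher after flg22 (2.48%) and 29 were lower (0.146%), together 2.63%. Among the genes higher after flg22 the median log2 fold change was 1.76, a 3.40-fold difference, and among those lower it was -1.24. All 492 were higher and all 29 lower in each of the 3 pairs. The flg22 and mock libraries did not overlap for 481 of the 492 and for each of the 29, against 22% of all tested genes. The genes were selected by a test of these same pairs, so neither count is separate support for the calls. The median pair ratio of the 492 genes was 1.44 in replicate 1, 1.88 in replicate 2 and 1.86 in replicate 3 on the log2 scale. How many genes passed depended on the replicates: 420 were higher and 16 lower without replicate 1, 196 and 1 without replicate 2, and 120 and 8 without replicate 3, and without the block for the replicate number 252 and 4 passed. At an adjusted p below 0.05 with the same fold threshold 645 genes were higher (3.25%). At an unadjusted p under 0.05 and any fold change, 2435 genes were higher and 1709 lower.

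**Figure D1:**
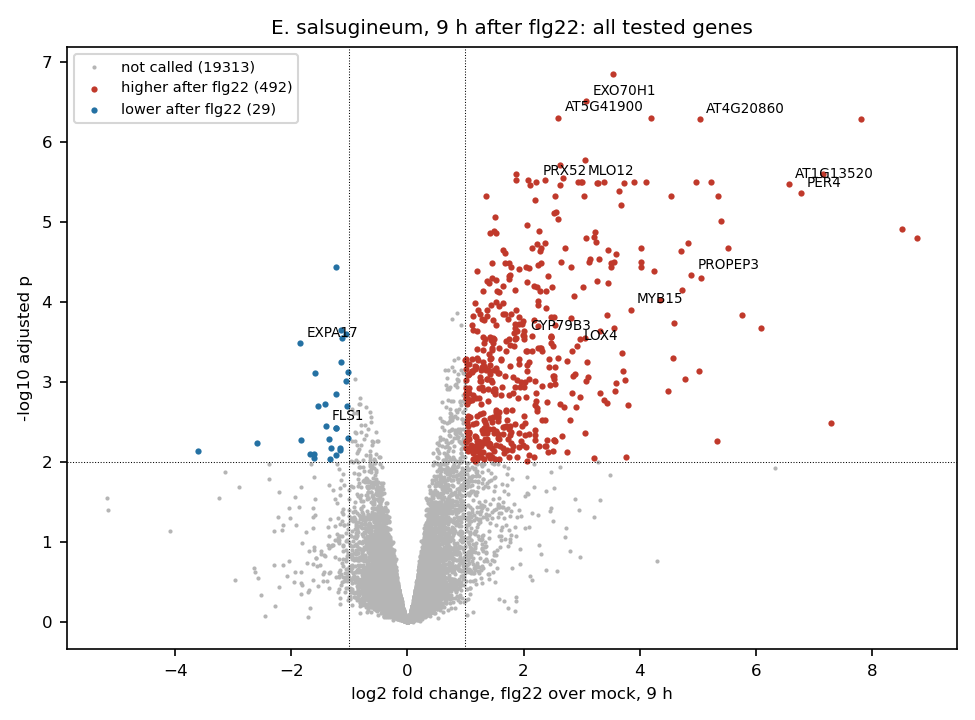
Each point is 1 of the 19834 tested genes, with the log2 fold change of flg22 over mock at 9 h on the x axis and -log10 of the adjusted p on the y axis. Dotted lines mark the thresholds, and the 492 called genes on the right stand against 29 on the left.

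Among genes with a listed ortholog and at least 10 counts on average in both groups, the steepest rises were led by genes with little or no functional annotation. AT1G13520, annotated as a protein with a domain of unknown function, had 21, 93.4 and 75.5 CPM in the flg22 libraries, against 0.409, 0.627 and 0.831 CPM in the mock libraries, a log2 fold change of 6.57 ± 0.55 (SE, n = 3 pairs). AT1G36622 followed with 5.35 ± 0.47 and AT4G18540 with 5.06 ± 0.57, both annotated as uncharacterized. AT4G20860, which encodes a berberine-type oxidase with an FAD-binding domain, had 47.6, 199 and 145 CPM after flg22, against 3.98, 3.76 and 2.89 CPM after mock (5.04 ± 0.33, edgeR adjusted p = 5.15e-07). Each flg22 library exceeded each mock library by over an order of magnitude for this gene, and replicate 1 was the lowest of the 3 flg22 libraries for AT1G13520, AT1G36622, AT4G18540 and AT4G20860 alike.

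Of the next genes in order of size, PROPEP3, which came before all of them, MYB15 and AT2G23270 are described with their lists below. The others are given here and had diverse annotations. AT2G47550, annotated in the plant invertase and pectin methylesterase inhibitor superfamily, had 36.4, 44.8 and 25.8 CPM after flg22, against 2.45, 1.85 and 1.51 CPM after mock (log2 fold change 4.19 ± 0.27). BRU6, a GH3 family gene whose A. thaliana products conjugate auxin to amino acids, reached 4.71, 12.8 and 9.79 CPM after flg22, against 0.335, 0.627 and 0.647 CPM after mock (4.03 ± 0.44). The C1 domain gene AT2G44370 rose by 4.11 ± 0.34, WRKY61 by 3.73 ± 0.31 and the 2-oxoglutarate-dependent oxygenase gene AT3G19010 by 3.69 ± 0.33 on the log2 scale. For these 5 genes the flg22 and mock libraries did not overlap. Of the genes without a listed ortholog that met the same count limit, the largest rises were those of Thhalv10007895 (5.40 ± 0.51) and Thhalv10026438 (4.74 ± 0.51). Genes without a listed ortholog made up 179 of the 492 higher genes and 26 of the 29 lower ones, and 1.15% of them were higher, against 7.38% of the 4240 genes with one. Most listed orthologs were picked by the study for a response in these libraries, so this split follows from that choice. In the listed set that the study did not pick by response, 35 of 1512 genes were higher (2.31%).

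For 12 of the higher genes each mock library held at most 3 counts, and their rise is given as a lower bound against 3 counts. The bounds ranged from at least 4.29-fold for AT1G03050, with 7, 22 and 5 counts after flg22, to at least 103-fold for Thhalv10021968, both named after their values were seen. Thhalv10021968 had 70, 423 and 324 counts in the flg22 libraries, against 1, 1 and 0 counts in the mock libraries. AT1G06135, chosen after its values were seen, had 37, 81 and 44 counts after flg22 and 0 in each mock library.

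The called falls of transcripts were small in number, and their median log2 fold change was -1.24. EXPA17, an expansin, which loosens cell walls, had 2.12, 2.03 and 1.72 CPM after flg22, against 6.17, 6.73 and 8.16 CPM after mock, and fell by 1.84 on the log2 scale (SE 0.26). BGLU47, a beta-glucosidase, fell by 1.42 (SE 0.25). FLS1, flavonol synthase, which makes flavonols from dihydroflavonols, had 10.4, 12.5 and 8.77 CPM after flg22, against 28.0, 35.6 and 21.1 CPM after mock, and fell by 1.41 (SE 0.27). These were the 3 lower genes with a listed ortholog, and all 3 missed the threshold without replicate 2 and without replicate 3, while BGLU47 and FLS1 also missed it without the block. Among genes without a listed ortholog and with at least 10 counts on average in both groups, the largest falls were those of Thhalv10014047 (-2.59 ± 0.52) and Thhalv10010144 (-1.83 ± 0.36). The lowest fitted value of all 29 genes was -3.61, for Thhalv10022024, which lay under this count limit with 2, 1 and 7 counts after flg22, against 65, 36 and 43 counts after mock, and was chosen after its values were seen.

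To place the response by function, 14 lists of genes with roles in immunity, growth and the clock were set beside it. The plot of the list members by list gives each member's value for all lists but the clock, and for the seedling markers. A list member could be measured only if the data sets of the study name its E. salsugineum ortholog. Most of those sets hold genes that the study picked as flg22-responsive in these libraries, so the counts below are no independent evidence of the lists' direction. The backgrounds are 313 of 4240 genes with a listed ortholog that were higher (7.38%), with a median log2 fold change of 0.11, and 35 of 1512 in the set that the study did not pick by response (2.31%), with a median of -0.00487. Over all tested genes the median was -0.01.

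**Figure D2:**
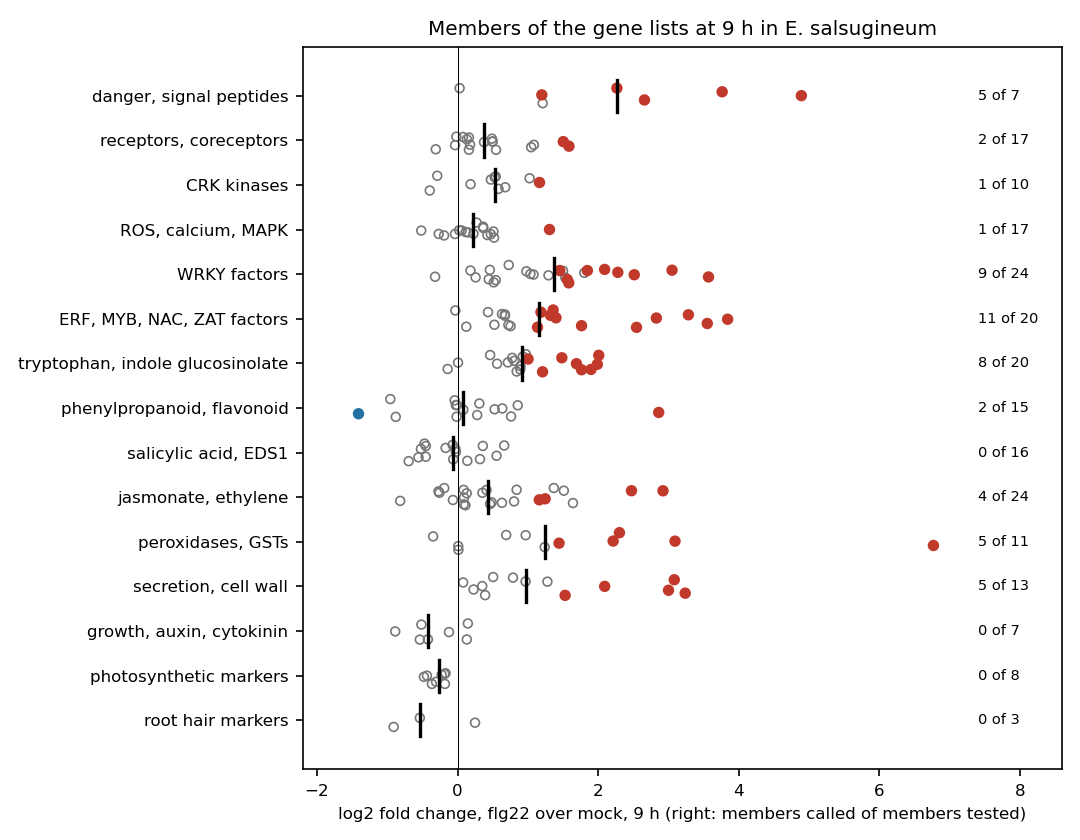
Each point is 1 gene, placed by its log2 fold change of flg22 over mock at 9 h on the x axis, in 1 row per list. Filled points are called genes (red higher, blue lower), open points are genes that were not called, and black bars are list medians. The numbers on the right give called and tested members, such as 5 of 7 danger and signalling peptide genes, 11 of 20 ERF, MYB, NAC and zinc finger genes and 0 of 16 salicylic acid genes.

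The list of danger and signalling peptides had the highest median of the 14, a log2 fold change of 2.27. Of its 7 tested genes 5 were higher, namely 2 Pep precursor genes, 2 phytosulfokine precursor genes and AT2G23270. PROPEP3 encodes the precursor of a Pep peptide, which in A. thaliana is released on damage and sensed by the PEPR receptors. Its level was 10.2, 60.9 and 78.5 CPM in the flg22 libraries, against 1.15, 1.97 and 1.45 CPM in the mock libraries, a log2 fold change of 4.89 ± 0.55 (edgeR adjusted p = 4.62e-05). The flg22 library of replicate 1 was the lowest by far and still above every mock library. PROPEP1, its paralog, had 2.70, 8.76 and 9.97 CPM after flg22, against 0.893, 0.599 and 1.79 CPM after mock (2.66 ± 0.52). The phytosulfokine precursor genes PSK4 and PSK2, whose peptides dampen or balance growth and defense in A. thaliana, gave 2.27 ± 0.22 and 1.2 ± 0.26, and AT2G23270, annotated without a name, 3.76 ± 0.80. RALF1, for a peptide sensed by the receptor kinase FERONIA, was 0.03 ± 0.17. Without 1 replicate number, 2 of the 5 genes were still called in each case, PROPEP3 and PSK4, and the same number without the block.

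Of 17 tested receptor, coreceptor and receptor-associated kinase genes, 2 were higher, with a list median of 0.38. In the same list 14 members had a positive log2 fold change and 9 were higher at an unadjusted p under 0.05, against 1126 of the 4240 genes with a listed ortholog (26.6%). LYK4, which takes part in chitin sensing, had 64.2, 126 and 70.4 CPM after flg22, against 23.9, 41.6 and 20.6 CPM after mock (1.58 ± 0.28), and its call was lost without the block, without replicate 1 and without replicate 3. RIPK, a cytoplasmic kinase, had 22.2, 42.8 and 30.9 CPM after flg22, against 10.4, 12.6 and 10.2 CPM after mock (1.5 ± 0.14), and it was called without any 1 replicate number. FLS2, the flg22 receptor, had 39.1, 45.8 and 43.8 CPM after flg22, against 52.7, 57.9 and 48.1 CPM after mock, and the difference of -0.31 ± 0.18 did not pass the test (edgeR adjusted p = 0.347). BAK1 gave 0.50 ± 0.12 (adjusted p = 0.0198), BIK1 0.13 ± 0.25, CERK1 0.38 ± 0.16 and PEPR1 -0.04 ± 0.14, none of them called. Among 10 cysteine-rich receptor kinases, CRK21 was called with 1.16 ± 0.25 and lost its call without the block, with RLE size factors, and without replicate 2 or 3.

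Of 17 genes for the oxidative burst, calcium and MAP kinase steps, RBOHD, the NADPH oxidase of the burst, was the single one called. It had 186, 261 and 346 CPM in the flg22 libraries, against 102, 93.1 and 117 CPM in the mock libraries (1.30 ± 0.21, edgeR adjusted p = 0.00126). Its groups did not overlap, but the call was lost without the block, without replicate 2 and without replicate 3. MPK3 (0.36 ± 0.22) and MKK4 (0.02 ± 0.19), a MAP kinase and its activating kinase, did not pass.

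Transcription factors were covered by 2 lists. Of 24 WRKY genes, whose products bind W-box motifs and act at many steps of A. thaliana immunity, 9 were higher (list median 1.37). WRKY22 had 45.4, 91.4 and 66.5 CPM after flg22, against 12.5, 16 and 12.5 CPM after mock (2.28 ± 0.24, edgeR adjusted p = 2.33e-05). WRKY29, which acts with WRKY22 downstream of MAP kinases in A. thaliana, had 71.1, 140 and 86.2 CPM after flg22, against 25.4, 42.5 and 30.7 CPM after mock (1.56 ± 0.24). In both genes replicate 2 was highest in either treatment and the groups did not overlap. WRKY30 (3.57 ± 0.59), WRKY71 (3.05 ± 0.59), WRKY41 (2.51 ± 0.35), WRKY72 (2.09 ± 0.23), WRKY75 (1.85 ± 0.25), WRKY11 (1.58 ± 0.19) and WRKY28 (1.45 ± 0.30) were the other 7. WRKY33, the activator of camalexin genes in A. thaliana, reached 1.5 ± 0.37 without passing (adjusted p = 0.02), and WRKY40, a repressor of defense genes, 1.53 ± 0.47 (adjusted p = 0.0614). Without replicate 3, 1 of the 24 genes was called, WRKY22, against 8 without replicate 1 and 4 without replicate 2.

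In the list of ERF, MYB, NAC and zinc finger factors, 11 of 20 genes were higher, with a median of 1.16. MYB15, which in A. thaliana activates lignin genes during immunity, had 9.85, 40.7 and 30.9 CPM after flg22, against 1.67, 1.85 and 1.72 CPM after mock (3.84 ± 0.48). The mock libraries were nearly equal for this gene, and the flg22 library of replicate 1 stood below those of replicates 2 and 3. The zinc finger genes ZAT11 (3.55 ± 0.38), ZAT12 (2.83 ± 0.40), ZAT10 (1.40 ± 0.27) and ZAT6 (1.32 ± 0.29) rose together with NAC042 (3.28 ± 0.27), ATAF2 (1.36 ± 0.25) and NAC055 (1.19 ± 0.18). ERF5 (2.55 ± 0.38), ERF104 (1.76 ± 0.33) and ERF2 (1.14 ± 0.24), which act in ethylene-linked defense, completed the 11. Leaving out replicate 1, 2 or 3 left 6, 4 or 3 of them called, among them MYB15, ZAT11 and NAC042 each time.

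In the tryptophan and indole glucosinolate list 8 of 20 tested genes were higher. Of the 20, 19 had a positive log2 fold change, 18 were higher at an unadjusted p under 0.05, and the median was 0.91. CYP79B2 and CYP79B3 encode the cytochromes P450 that turn tryptophan into indole-3-acetaldoxime, the entry to indole glucosinolates and camalexin. CYP79B2 had 160, 203 and 141 CPM after flg22, against 56.7, 40.6 and 30.6 CPM after mock (1.99 ± 0.26, edgeR adjusted p = 0.000172). CYP79B3 had 115, 117 and 75.0 CPM after flg22, against 34.3, 22.9 and 19.7 CPM after mock (2.01 ± 0.27). Every flg22 library lay well above the highest mock library for both genes.

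Other members of the same route were MYB51 (1.90 ± 0.32) and MYB122 (1.69 ± 0.32), the regulators of indole glucosinolate synthesis, GGP1 (1.21 ± 0.18) and SOT16 (1.48 ± 0.23), which act in the core pathway, APK2 (1.76 ± 0.27), which supplies activated sulfate, and TSA1 (1.00 ± 0.16), a tryptophan synthase subunit. TSA1 lay at the fold threshold and lost its call without the block, in the 9 h libraries alone, with limma-voom, DESeq2 and RLE size factors, and without any 1 replicate number. MYB51 had 97.4, 172 and 158 CPM after flg22, against 39.5, 44.7 and 27.6 CPM after mock. SUR1 (0.81 ± 0.18, edgeR adjusted p = 0.0122) and ASA1 (0.78 ± 0.18, adjusted p = 0.0122) missed the threshold in size as well as p, and PEN3, which encodes a transporter at the plasma membrane, stood at 0.84 ± 0.25. Without replicate 1 and without replicate 2, 4 of the 20 genes were called, 1 was called without replicate 3 and 3 without the block.

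The phenylpropanoid list of 15 genes did not move as 1 block. CCR2, a cinnamoyl-CoA reductase of lignin synthesis, had 26.7, 63.5 and 48.7 CPM after flg22, against 7.44, 5.84 and 4.83 CPM after mock (2.86 ± 0.34). PAL1 and C4H, which encode the first enzymes of the pathway, gave 0.31 ± 0.20 and 0.64 ± 0.19 and did not pass. On the flavonoid side FLS1 fell, and UGT78D2, a flavonoid glucosyltransferase, was at -0.88 ± 0.27 (edgeR adjusted p = 0.0595) without passing. The list median was 0.08.

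The salicylic acid list had 29 members, of which PR1, PR2, PR5, EDS1 and ALD1, among others, lacked a listed ortholog. The tested ones showed no call at 9 h. Of 16 genes, 0 passed in either direction with edgeR, and likewise 0 with limma-voom and DESeq2, while 2 were higher at an unadjusted p under 0.05. The list median was -0.07. At 1 h the median was 1.49 and 9 of the 16 genes were higher, and a smaller effect at 9 h than at 1 h was called for 6. ICS1, isochorismate synthase, the main source of salicylic acid in A. thaliana, had 39.6, 26.2 and 24.3 CPM in the flg22 libraries, against 45.0, 46.9 and 31.2 CPM in the mock libraries (-0.45 ± 0.28). The groups overlapped, and each pair was lower after flg22. PBS3 (-0.70 ± 0.52), SARD1 (-0.17 ± 0.39), CBP60G (0.32 ± 0.35), EDS5 (0.36 ± 0.29), PAD4 (0.55 ± 0.21), NPR1 (-0.06 ± 0.15) and FMO1 (-0.56 ± 0.60) were not called either.

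In the jasmonate and ethylene list 4 of 24 genes were higher, with a median of 0.44. LOX4, a lipoxygenase of the jasmonate pathway, had 12.0, 28.4 and 36.2 CPM after flg22, against 2.75, 3.62 and 3.29 CPM after mock (2.92 ± 0.41), and LOX3 gave 1.25 ± 0.26. ACS6, an ACC synthase, which catalyses the committed step of ethylene synthesis and is a MAP kinase target in A. thaliana, had 80.7, 137 and 127 CPM after flg22, against 23.2, 23.2 and 16.7 CPM after mock (2.47 ± 0.32). JAZ1, a repressor of jasmonate signaling, rose by 1.16 ± 0.24, with overlapping groups. The next enzymes of jasmonate synthesis did not follow: AOS was at -0.26 ± 0.23, and AOC2, at under 1 CPM in every 9 h library, at -0.82 ± 1.33. Without replicate 3, 0 of the 24 genes were called, and without replicate 2 or without the block 2 were.

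Peroxidase and glutathione S-transferase genes gave 5 of 11 higher (median 1.24), and secretion and cell wall defense genes 5 of 13 (median 0.97). PER4 had the largest fitted change of any list member, 6.77 ± 0.58, with 9.58, 25.9 and 18.4 CPM after flg22, against 0, 0.456 and 0 CPM after mock, so that the fitted value depends on a single mock library. PRX52 had 489, 812 and 887 CPM after flg22, against 149, 134 and 172 CPM after mock (2.21 ± 0.18), and PRX34, whose A. thaliana product contributes to the apoplastic burst, gave 1.44 ± 0.23. GSTF3 had 2353, 2284 and 1410 CPM after flg22, against 426, 446 and 334 CPM after mock (2.30 ± 0.25), and GSTU11 rose by 3.09 ± 0.46. PER4, PRX52 and GSTF3 were called without any 1 replicate number.

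In the secretion list, MLO12 and MLO6 belong to a family of membrane proteins that condition powdery mildew susceptibility. MLO12 had 247, 522 and 369 CPM after flg22, against 40.4, 64.3 and 36.3 CPM after mock (3.00 ± 0.24, edgeR adjusted p = 3.13e-06), and MLO6 gave 2.09 ± 0.33, while MLO2 was at 0.79 ± 0.19 without passing (adjusted p = 0.0202). EXO70H1, an exocyst subunit, had 23.6, 31.2 and 18.1 CPM after flg22, against 3.31, 3.62 and 1.79 CPM after mock (3.08 ± 0.18, adjusted p = 3.08e-07). NHL10, a flg22 marker gene in A. thaliana, rose by 3.24 ± 0.31 and the syntaxin gene SYP122 by 1.53 ± 0.27, while its relative PEN1 stood at 0.51 ± 0.22 (adjusted p = 0.202). MLO12, EXO70H1 and NHL10 were called without any 1 replicate number.

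Growth and clock genes gave no call, with edgeR, limma-voom or DESeq2, among 7 and 3 tested members. The medians were -0.42 and -0.29. The lowest growth gene was IAA3, an auxin response repressor, at -0.89 ± 0.34 (edgeR adjusted p = 0.139), 2 growth genes were lower and 0 clock genes changed at an unadjusted p under 0.05. LHY, a morning gene of the clock, overlapped between the groups, with 0.579, 0.997 and 1.61 CPM after flg22, against 1.12, 3.34 and 0.400 CPM after mock.

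**Figure D3:**
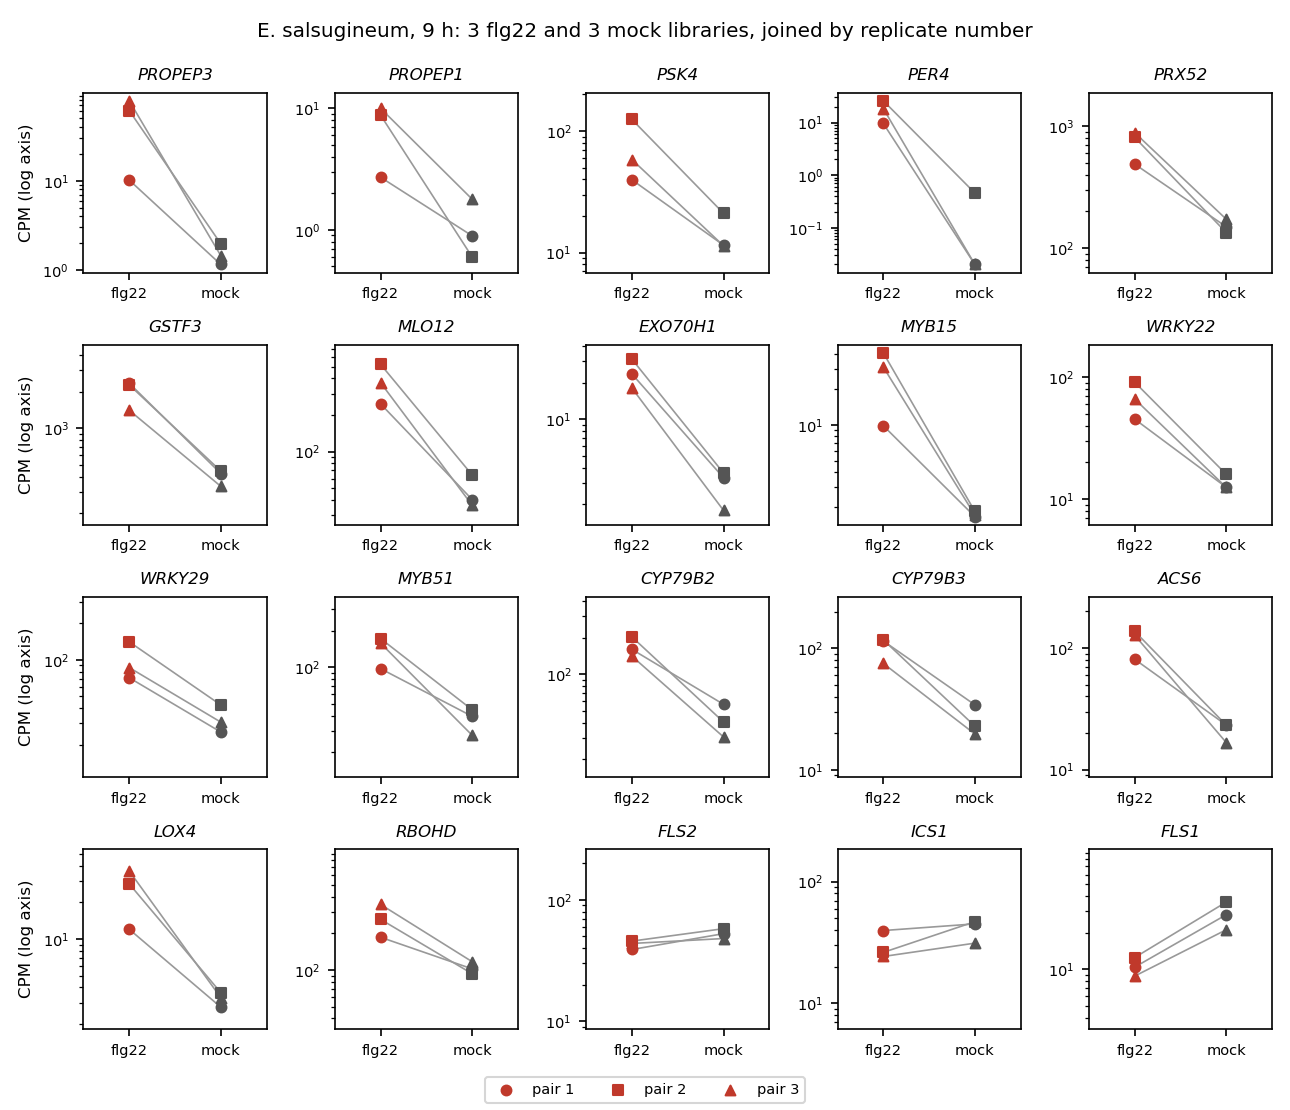
Levels of 20 list members in CPM (log axis, ranges differ between panels) in the 3 flg22 libraries (red, left) and the 3 mock libraries (gray, right), with lines joining libraries of the same replicate number, and 0 CPM drawn at 0.02. In the panels of PROPEP3 and MYB15 the flg22 library of replicate 1 sits below the others, FLS2 and ICS1 lie slightly lower after flg22 without passing the test, and FLS1 is lower in each pair.

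The 9 h effect was then compared with the 1 h effect in the same fit, as the difference of the log2 fold changes. At 1 h 2119 genes were higher after flg22 (10.7%) and 339 lower (1.71%). Of the 492 genes higher at 9 h, 401 were also higher at 1 h, which is 81.5% of the 9 h genes and 18.9% of the 1 h genes. The difference was called smaller at 9 h for 1272 genes (6.41%), of which 1225 had been higher at 1 h, and larger at 9 h for 109 genes (0.55%). Of these 109, 48 had been lower at 1 h and 28 were higher at 9 h, 1 of them both. Within the 492, 193 of the 401 genes shared with 1 h had a smaller effect at 9 h and 2 a larger one. The mock library of replicate 2 at 1 h had a median log2 excess of 0.47 over the other 1 h mock libraries in the 2119 genes. That of replicate 1 was at -0.36. In the other groups of E. salsugineum libraries replicate 2 was also in excess, by 0.11 to 0.27. The counts were 994 smaller and 37 larger without replicate 2, 756 and 55 without replicate 1, and 701 and 8 without replicate 3, and 902 and 40 without the block.

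**Figure D4:**
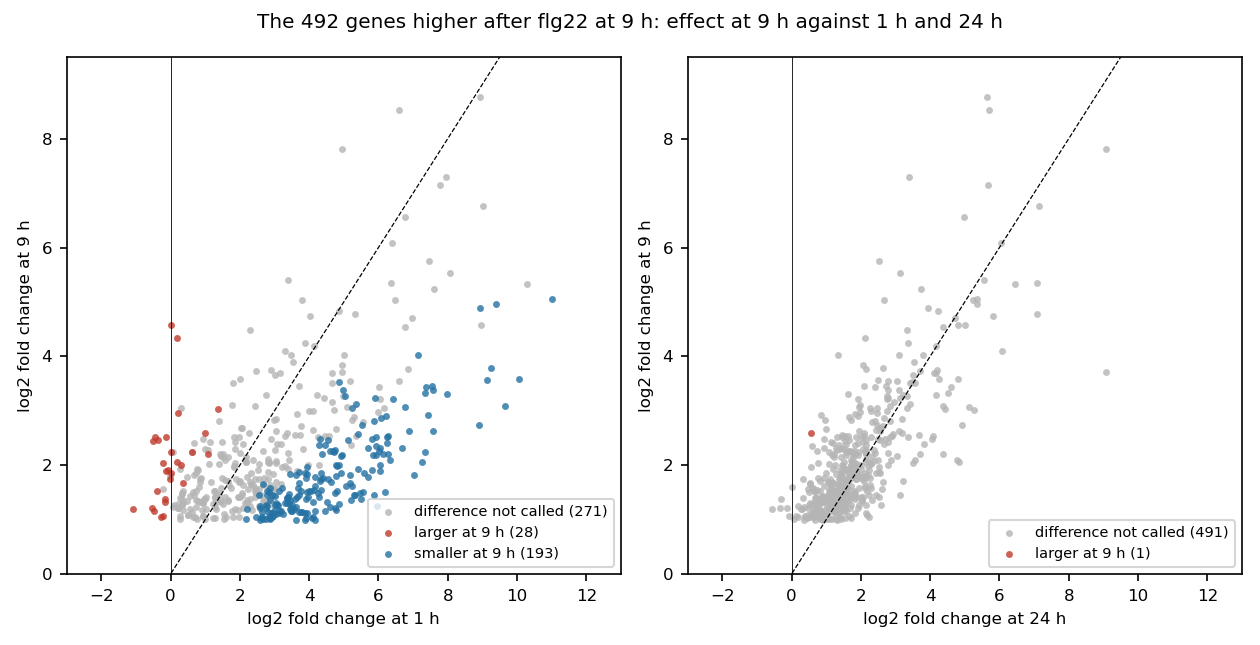
Each point is 1 of the 492 genes higher after flg22 at 9 h, with the log2 fold change at 9 h on the y axis and that at 1 h (left) or 24 h (right) on the x axis, and the dashed line marks equal effects. Blue points (193) had a smaller effect at 9 h than at 1 h, red points a larger one (28 against 1 h and 1 against 24 h), and gray points were not called.

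Over the genes with a listed ortholog, a smaller effect at 9 h than at 1 h was called for 884 of 4240 (20.8%). In the set that the study did not pick by response it was called for 102 of 1512 genes, and over all tested genes for 6.41%. It was called for 14 of 17 receptor and coreceptor genes, whose median log2 fold change was 2.65 at 1 h and 0.38 at 9 h, for 10 of 17 burst, calcium and MAP kinase genes, 11 of 24 jasmonate and ethylene genes, 12 of 24 WRKY genes and 9 of 13 secretion genes. In the tryptophan and indole glucosinolate list it was called for 4 of 20 genes, close to the 20.8% but above the 6.41%. The medians of this list were 1.69 at 1 h and 0.91 at 9 h. PROPEP3 averaged 431 CPM after flg22 and 0.894 CPM after mock at 1 h, and 49.9 ± 35.5 CPM after flg22 and 1.52 ± 0.41 CPM after mock at 9 h (SD, n = 3), a difference of effects of -4.03 ± 0.78 (SE). LOX4 showed -4.51 ± 0.58, while ACS6 (-0.42 ± 0.42, edgeR adjusted p = 0.589) did not differ beyond its error.

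The genes with the steepest decline had their highest flg22 level at 1 h. AT3G54150, a putative methyltransferase gene, averaged 573 CPM after flg22 and 4.91 CPM after mock at 1 h, and 11.7 CPM after flg22 and 6.04 CPM after mock at 9 h (difference of log2 fold changes -5.98 ± 0.67). In the mock libraries of 1 h it had 32, 412 and 52 counts, the high one being replicate 2. GSTU11 (-6.55 ± 0.91), AT3G52520 (-6.23) and the NAC gene AT3G12910 (-6.17) were also among them. Their mock libraries of 1 h held 1, 5 and 1 counts for GSTU11, 0, 7 and 3 for AT3G52520, and 5, 9 and 0 for AT3G12910. The size of these 3 differences therefore depends on the fit. AT4G04480, an F-box gene, had the lowest fitted difference (-9.75), but its mock libraries of 1 h held 0, 1 and 0 counts against 4221, 2835 and 2769 counts after flg22, so that this value depends on the fit and is no bound, and the call was lost without any 1 replicate number. AT3G12910 lost its call without replicate 1, and GSTU11, AT3G52520 and AT3G54150 kept theirs in all 3 cases.

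A late component was also called, but it depended on the replicates. The 109 larger effects at 9 h than at 1 h became 55 without replicate 1, 37 without replicate 2, 8 without replicate 3 and 40 without the block. Of the 492 genes, 91 were not called higher at 1 h, and for 26 of these the larger effect at 9 h was itself called. CYP79B3 belonged to them: it averaged 26.0 CPM after flg22 and 20.8 CPM after mock at 1 h, 102 ± 24 CPM after flg22 and 25.6 ± 7.7 CPM after mock at 9 h (SD, n = 3), and 23.3 CPM after flg22 and 6.48 CPM after mock at 24 h. Its log2 fold changes were 0.31, 2.01 and 1.84 at 1, 9 and 24 h, and the 9 h effect exceeded the 1 h effect by 1.70 ± 0.38 (edgeR adjusted p = 0.00587). CYP79B2, in contrast, was higher at 1 h already (1.84), with a difference of 0.15.

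AT3G59850, a pectin lyase-like gene, had the largest difference of the genes named here by rule, 2.76 ± 0.65. It had 2.47, 10.3 and 7.24 CPM after flg22 at 9 h, against 0.707, 1.48 and 0.400 CPM after mock, and was at 0.719 CPM after flg22 and 0.582 CPM after mock on average at 1 h. SULTR1;2, a root sulfate transporter in A. thaliana, followed a course of -0.86, 1.21 and 1.36 in log2 fold change over 1, 9 and 24 h, with 196, 282 and 204 CPM after flg22 at 9 h, against 100, 126 and 73.7 CPM after mock. The 9 h effect alone missed the threshold (adjusted p = 0.0181), whereas the difference from 1 h was called (2.07 ± 0.41, edgeR adjusted p = 0.00255). SAUR9 (2.46 ± 0.55), YUC5 (2.02 ± 0.46), an auxin synthesis gene, whose 9 h effects alone did not pass either (adjusted p = 0.0361 and 0.0172), and UMAMIT28 (2.1 ± 0.36), an amino acid transporter gene, were the others. At 1 h the log2 fold changes of SAUR9 and YUC5 were -1.13 and -0.62. YUC5 had 193, 1416 and 289 counts in the mock libraries of 1 h, the high one being replicate 2, and its difference was 1.79 without replicate 2. UMAMIT28 was lower after flg22 at 1 h (-1.91) and did not pass at 9 h (0.19 ± 0.25). Without replicate 3 the difference was called for 0 of these 5 genes, without replicate 2 for UMAMIT28 and without replicate 1 for AT3G59850 and SULTR1;2. Without the block it was called for UMAMIT28 alone, and with limma-voom for UMAMIT28 and SULTR1;2.

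The largest of the 109 differences was that of Thhalv10029040, a gene without a listed ortholog and chosen after its values were seen. It had 151, 529 and 445 CPM in the flg22 libraries of 9 h, against 14.1, 21 and 5.67 CPM in the mock libraries. Its log2 fold change was -0.00 at 1 h, 4.57 at 9 h and 5 at 24 h, and the difference between 9 h and 1 h was 4.57 ± 1.03 (edgeR adjusted p = 0.00621).

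The 9 h effect was compared with the 24 h effect in the same way. At 24 h 562 genes were higher after flg22 (2.83%) and 49 lower (0.247%). Of the genes higher at 9 h, 342 were higher at 24 h, which is 69.5% of the 9 h genes and 60.9% of the 24 h genes, and 285 were higher at all 3 times. The difference between the effects was called larger at 9 h for 1 gene (0.00504%) and smaller for 0 with edgeR. At an unadjusted p under 0.05 there were 1016 genes, 5.12% of those tested, of which 364 were smaller at 9 h. limma-voom called 1 and 0 genes and DESeq2 4 and 9. In simulated counts with the same design, 82% of 4-fold and 14% of 2-fold differences between 9 h and 24 h were recovered. This recovery was counted at an adjusted p below 0.01, without the fold threshold.

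The 1 gene was AT5G41900, which encodes an alpha/beta-hydrolase. It had 26.4, 20.4 and 15.5 CPM in the flg22 libraries of 9 h, against 3.98, 3.59 and 2.62 CPM in the mock libraries (2.60 ± 0.17, edgeR adjusted p = 4.94e-07). After flg22 it averaged 17.4, 20.7 and 15.7 CPM at 1, 9 and 24 h, and after mock 8.61, 3.40 and 10.3 CPM, so the level after flg22 stayed within a narrow range and the mock level was lowest at 9 h. The 9 h effect exceeded the 24 h effect by 2.02 ± 0.22 (adjusted p = 0.00343) and the 1 h effect by 1.60 ± 0.22 (adjusted p = 0.000117). The difference from 24 h stayed between 1.94 and 2.09 when a replicate number was left out, but the call was lost each time, and without the block as well.

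Finally, the 9 h effect in E. salsugineum was set against the mean 9 h effect of A. thaliana Col-0, C. rubella and C. hirsuta, which were treated with the same dose at the same age, with 3 flg22 and 3 mock libraries each. The test covered 4331 orthologs that the data sets of the study list for all 4 species, and most of these were picked by the study for a response in these libraries. The effect was larger in E. salsugineum for 21 orthologs (0.485%) and smaller for 38 (0.877%). With replicate numbers as blocks within species it was larger for 37 and smaller for 61. Leaving out replicate 1 in every species left 3 and 0, leaving out replicate 2 left 4 and 16, and leaving out replicate 3 left 3 and 2. For all 21 the E. salsugineum effect lay above those of all 3 other species, and for 35 of the 38 below. Over the same orthologs 283 were higher and 5 lower after flg22 in E. salsugineum, against 642 and 134 in Col-0, 245 and 24 in C. rubella, and 486 and 99 in C. hirsuta, each tested in this fit.

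**Figure D5:**
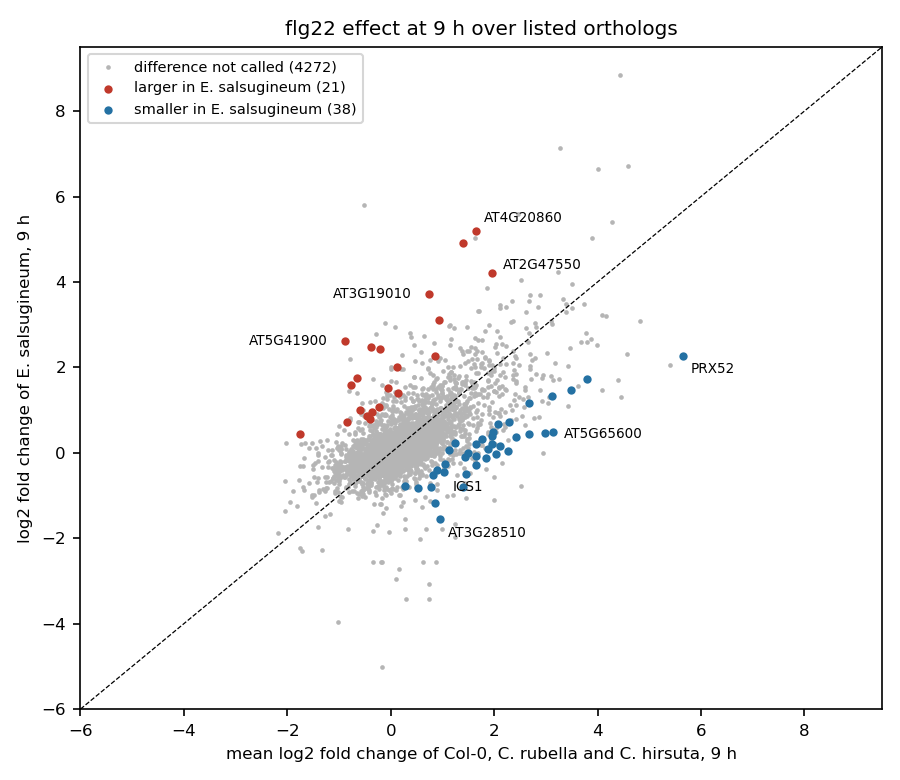
Each point is 1 of 4331 listed orthologs, with the mean log2 fold change of Col-0, C. rubella and C. hirsuta at 9 h on the x axis and that of E. salsugineum on the y axis, and the dashed line marks equal effects. The 21 red points had a larger and the 38 blue points a smaller effect in E. salsugineum.

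Of the 21 orthologs with a larger effect, 15 were also called higher in E. salsugineum on its own. AT5G41900 was the one gene called whichever replicate number was left out: its effect was 2.61 in E. salsugineum, against 0.04 in Col-0, -1.21 in C. rubella and -1.48 in C. hirsuta (difference 3.49 ± 0.39, edgeR adjusted p = 3.1e-05). Its mean level was 20.7 CPM after flg22 and 3.40 CPM after mock in E. salsugineum, and 4.52 CPM after flg22 and 12.6 CPM after mock in C. hirsuta. AT4G20860, the berberine-type oxidase, differed by 3.56 ± 0.48, with effects of 5.2 in E. salsugineum, against 2.43, 0.44 and 2.05 in Col-0, C. rubella and C. hirsuta. The 2-oxoglutarate-dependent oxygenase genes AT3G19010 (2.98 ± 0.42) and AT3G60290 (2.87 ± 0.53) and the leucine-rich repeat kinase gene AT1G07560 (2.63 ± 0.50) came next. In E. salsugineum on its own AT3G60290 did not pass at 9 h (log2 fold change 2.38, edgeR adjusted p = 0.023). MYB96, a regulator of cuticular wax and abscisic acid responses in A. thaliana, was also among the 21 (1.29 ± 0.24) and was chosen after its values were seen. Of the 21 genes, 10 belong to the set that the study had grouped as particular to E. salsugineum on these libraries, so this overlap is no independent support. Of 245 tested genes of that set, 222 were higher at 1 h and 13 (5.31%) at 9 h. Of the 4240 genes with a listed ortholog, 1401 were higher at 1 h and 313 (7.38%) at 9 h. Without replicate 1 AT4G20860 and AT3G19010 remained called beside AT5G41900, as they did without replicate 2, and neither remained without replicate 3.

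Of the 38 orthologs with a smaller effect, 2 were higher at 9 h in E. salsugineum itself. WRKY53 had an effect of 0.43 in E. salsugineum, against 2.62 in Col-0, 2.30 in C. rubella and 3.08 in C. hirsuta (difference -2.24 ± 0.40, edgeR adjusted p = 0.00322). The salicylic acid list held 2 of the 38 orthologs among its 15 tested members, and the list medians were -0.03 in E. salsugineum, 1.19 in Col-0, -0.71 in C. rubella and 0.85 in C. hirsuta. ICS1 had -0.45 in E. salsugineum, against 1.90, 0.54 and 0.64 in Col-0, C. rubella and C. hirsuta (-1.48 ± 0.30), and CBP60G, a regulator of ICS1 in A. thaliana, had 0.32, against 3.14, 0.63 and 1.55 (-1.46 ± 0.32). Both were largest in Col-0, and neither was called when any 1 replicate number was left out. SD1-29, the gene of an S-domain receptor kinase that senses bacterial medium-chain fatty acids in A. thaliana, chosen after its values were seen, differed by -1.51 ± 0.31.

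PRX52 gave the lowest difference, -3.38 ± 0.56, although it rose in E. salsugineum. Its effect was 2.26 there, against 7.10 in Col-0, 2.56 in C. rubella and 7.27 in C. hirsuta. The mean level was 729 CPM after flg22 and 152 CPM after mock in E. salsugineum, 248 CPM and 1.77 CPM in Col-0, 267 CPM and 45.4 CPM in C. rubella, and 416 CPM after flg22 and 2.68 CPM after mock in C. hirsuta. For this gene Col-0 and C. hirsuta had the lowest mock levels and the largest effects, and a link between the mock level and the effect was not tested. AT5G65600, a lectin-type receptor kinase gene, had 39.4 CPM after flg22 and 28.1 CPM after mock in E. salsugineum, against 16.1 and 1.69 CPM in Col-0. Its difference from the mean effect of the 3 other species was -2.65 ± 0.45. AT4G40020 (-2.53 ± 0.46), annotated as related to myosin heavy chains, and AT3G28510 (-2.49 ± 0.48), which encodes a nucleoside triphosphate hydrolase, and WRKY53 were the others of the 5 lowest. In E. salsugineum itself AT3G28510 was lower after flg22, without passing, at 23.7 CPM against 68.9 CPM after mock (log2 fold change -1.60, edgeR adjusted p = 0.0154). Of these 5 genes, PRX52 was called without replicate 2, and none was called without replicate 1 or 3.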

How the data were processed

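The authors deposited raw counts of reads per gene, 1 table per species. Per the study's methods, strand-specific single reads of 100 bp from polyadenylated RNA were mapped with TopHat2 to the E. salsugineum genome of version 1.0 and assigned to genes by HTSeq 0.6.0 in its default mode. The labels' processing notes name TAIR10, an A. thaliana build, for all samples, but the deposited table lists E. salsugineum gene identifiers. Reads with several alignments (15.65% to 23.37% of the 9 h libraries) were not counted, so genes with near-identical copies are uncertain. The table's last lines hold totals of unassigned reads (21.2% to 28.3%, those reads included) and entered neither library sizes nor tests. All columns of per-sample values of the 4 species tables were read as mapped, and the 5 accession tables were not used.

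The quasi-likelihood test of edgeR (version 4.0.16, R version 4.3.3) was run on genes averaging 10 counts or more over the 18 E. salsugineum libraries, with TMM factors, all groups in 1 fit and the replicate number as a block, as in the study's model. Adjusted p-values are Benjamini-Hochberg over all genes tested. The SE was derived from the log2 fold change and its F statistic. Differences between times are contrasts of that fit. The species test used 24 libraries of 9 h without the block, as the study's combined analysis did, with library sizes from the full tables. Depth was 25987870 to 33655269 gene counts in the 9 h libraries.

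Deviations of same-numbered flg22 and mock libraries of 9 h from their group means correlated at 0.384, 0.622 and 0.538, and other pairings at -0.49 to 0.01. Replicates within a group were all distinct libraries. Genes were named by rule: the 12 largest rises and 8 largest falls among called genes with a listed ortholog, at least 10 counts on average in both groups and the same direction in all pairs (only 3 falls qualified), the 2 largest each without ortholog, called list members with further members of central role, and the 5 largest and smallest called differences per test among genes with a listed ortholog and at least 10 counts on average in each time or species compared. The genes, lists and rules were chosen with earlier results of these data known. On simulated counts with 100 genes changed by each fold size, recovery was counted at an adjusted p below 0.01, without the fold threshold. The 9 h test recovered 97% of 4-fold and 63% of 2-fold changes among 19834 genes, and 1 unchanged gene passed both thresholds. The median absolute fitted log2 fold change of the 2-fold genes was 0.976, so many of them lay under the fold threshold of a call. In the species test 85% of 4-fold and 27% of 2-fold changes were recovered among 4331 genes.

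Alternatives were a fit without the block, one of the 6 libraries of 9 h, limma-voom 3.58.1, DESeq2 1.42.0, RLE factors, other filters (none beyond 1 count, or a mean of 50), an adjusted p below 0.05 and leaving out each replicate number. A. thaliana names and products come from the TAIR10.1 annotation of RefSeq.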

Additional observations from a re-analysis of the deposited data

Results flagged for a closer look

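The following results were picked out because a test of the difference between 2 flg22 effects passed its threshold. They are given as values, and their causes were not tested. Against 1 h, the 9 h effect in E. salsugineum was larger for 109 genes and smaller for 1272, and against 24 h it was larger for 1 gene. Against the other 3 species, 21 orthologs had a larger and 38 a smaller effect at 9 h.

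For 9 h minus 1 h the log2 differences were 2.76 for AT3G59850, 2.46 for SAUR9, 2.1 for UMAMIT28, 2.07 for SULTR1;2 and 2.02 for YUC5 at the upper end. At the lower end they were -9.75 for AT4G04480, -6.55 for GSTU11, -6.23 for AT3G52520, -6.17 for AT3G12910 and -5.98 for AT3G54150. For 9 h minus 24 h the difference was 2.02 for AT5G41900.

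For E. salsugineum minus the mean of the other species the log2 differences were 3.56 for AT4G20860, 3.49 for AT5G41900, 2.98 for AT3G19010, 2.87 for AT3G60290 and 2.63 for AT1G07560. On the other side they were -3.38 for PRX52, -2.65 for AT5G65600, -2.53 for AT4G40020, -2.49 for AT3G28510 and -2.24 for WRKY53. AT5G41900 appears in both comparisons.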

How the results depend on the processing

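The genes higher at 9 h numbered 492, and between 453 and 697 with limma-voom, DESeq2, RLE factors, either other filter, the 6 libraries of 9 h alone or an adjusted p below 0.05. Without the replicate block they numbered 252, and 120 to 420 when 1 replicate number was left out. The genes lower at 9 h numbered 29, against 4 without the block, 87 in the 6 libraries alone, 61 with DESeq2, 65 at an adjusted p below 0.05 and 1 to 16 when 1 replicate number was left out. Genes with a larger effect at 9 h than at 1 h numbered 109, against 40 without the block, 225 at an adjusted p below 0.05 and 8 to 55 with a replicate number left out, and those with a smaller effect 1272, against 701 to 994. Against 24 h, the 1 larger effect became 0 without the block or any replicate number and 4 with DESeq2, and the 0 smaller ones became 9 with DESeq2 and 0 to 1 with a replicate number left out. Between species, 21 larger and 38 smaller effects became 53 and 67 at an adjusted p below 0.05, 37 and 61 with the replicate block within species, 4 and 2 in the set of orthologs not picked by response, and 3 to 4 and 0 to 16 with a replicate number left out. Of 125 named genes 72 were called at 9 h, and of these 28 lost their call at 9 h without the block, 19 without replicate 1, 33 without replicate 2 and 44 without replicate 3. The sign of 4 genes that were not called turned when a replicate number was left out. LHY lay between -1.53 and 0.66 (positive without replicate 2), RALF1 between -0.0218 and 0.102 (negative without replicate 2, at -0.00148, and without replicate 3), MKK4 between -0.142 and 0.124 (negative without replicate 1) and PEPR1 between -0.128 and 0.048 (positive without replicate 2). The causes were not tested. With 3 pairs, changes near 2-fold were often missed, and genes under 10 counts on average were not tested.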
